A study of Homo sapiens with 12 samples.

Results

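The heat shock proteins and the DNAJ co-chaperones are the families of molecular chaperones described here. Members were taken by symbol: HSPA, HSPB, HSPD, HSPE and HSPH followed by a digit, HSP90, and DNAJA, DNAJB and DNAJC followed by a digit. Of 27130 genes in the count table, 85 matched, and 3 with pseudogene symbols (DNAJA1P5, HSP90B2P and HSP90AB4P) were dropped. The 82 members comprised 32 DNAJC, 15 DNAJB, 15 HSPA, 9 HSPB, 4 DNAJA, 3 HSP90, 3 HSPD or HSPE rows and 1 HSPH gene. Among them 8 were antisense or readthrough rows, not chaperone genes of their own. A total of 62 members passed the filter on low counts and was tested, including 2 antisense rows (DNAJC9-AS1 and DNAJC3-AS1). The other 20 had at most 71 counts summed over all libraries, and 6 of them had none.

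Poly(A) RNA was sequenced from H1 (WA01) cells, a human embryonic stem cell line, in 12 libraries, 3 in each of 4 groups. The groups were wild type cells (WT), cells with a homozygous ZNF263 knockout (KO), cells of that knockout that overexpressed ZIC2 (KO with ZIC2), and cells that overexpressed ZNF263 (OE). The library names of the WT and KO groups hold the tag vec, and those of both knockout groups share the tag 2-10, which the labels do not explain. The comparisons ask how the loss of the zinc finger factor ZNF263, its excess, and an excess of the zinc finger factor ZIC2 on the knockout background change RNA levels. No heat shock or other stress treatment is named in the labels. The labels do not state how many clones make up the knockout or whether the libraries came from separate cultures. If both knockout groups come from a single line, a difference of that line and an effect of the knockout cannot be told apart.

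The libraries held 17175183 to 21804410 counts each, except KO replicate 1 with 43464609. ZNF263 stood at 39.2 ± 1.35 CPM (counts scaled to a common library size; SD, n = 3) in WT, at 31.1 ± 0.128 in KO and at 239.6 ± 18.0 in OE. ZNF263 RNA was thus 0.793-fold of its WT level in the knockout, and gene-level counts do not by themselves show the loss of the protein. ZIC2 was at 156 ± 3.81 CPM (SD, n = 3) in KO and 2040 ± 175 in KO with ZIC2. All 12 pluripotency markers examined were above 1 CPM, and their sum was 9631 to 10179 CPM in every library, so the label of the cells and their markers did not conflict. Single markers moved under this sum: 5 were higher and 3 lower in KO against WT (edgeR, adjusted p under 0.05). The sum of 12 mesenchymal and fibroblast markers moved with the knockout: 669 to 705 CPM in WT, 623 to 647 in OE, 1011 to 1179 in KO and 1084 to 1210 in KO with ZIC2. Of the 12, 3 (COL3A1 among these) stayed under 1 CPM throughout, and 6 of 9 tested were higher in KO. THY1 (84776) and TAGLN (83059) held the most counts of this list over all libraries, before COL1A1 (28420) and COL1A2 (23628). The mesenchymal sum thus rests largely on few genes. The sum of 8 neuroectoderm markers was 394 to 418 CPM in WT, 399 to 408 in OE, 469 to 518 in KO and 494 to 555 in KO with ZIC2, with 2 of 6 tested higher and 1 lower in KO. The sum of 8 mesendoderm and endoderm markers was 6.40 to 7.16 CPM in WT, 3.99 to 6.44 in OE, 8.11 to 10.2 in KO and 8.96 to 11.2 in KO with ZIC2. That of 8 trophoblast markers was 5.60 to 5.87 CPM in WT, 8.09 to 8.44 in OE, 5.85 to 7.41 in KO and 7.79 to 9.42 in KO with ZIC2. In KO, 1 of 3 tested mesendoderm and endoderm markers was higher, and of 3 tested trophoblast markers 1 was higher and 1 lower. The marker calls in KO stand beside 20% of all genes higher and 18.5% lower. No marker of these 5 lists was at 0 in every library, but many stayed under 1 CPM throughout. These were 6 of the 8 trophoblast, 5 of the 8 mesendoderm and endoderm and 2 of the 8 neuroectoderm markers, so these sums rest on few genes. The part of such cells or such a program in the chaperone results was not tested. In bulk RNA, fewer cells that express a gene and less of its RNA per cell cannot be told apart.

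HSP70 proteins (the HSPA family) bind and release unfolded stretches of protein in a cycle driven by ATP. J-domain proteins (DNAJ) bring substrates to HSP70 and trigger ATP hydrolysis, and HSP110 proteins and other exchange factors let the nucleotide go. HSP90 acts later on signalling proteins and receptors, small heat shock proteins (HSPB) hold unfolded proteins without ATP, and the HSPD1 and HSPE1 chaperonin folds proteins inside mitochondria. Under heat or other protein stress the factor HSF1 binds repeats of the unit NGAAN, called heat shock elements, and induces part of these genes, while constitutive members such as HSPA8 and HSP90AB1 are abundant in dividing cells.

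Since these genes are the textbook targets of HSF1, the stretches that carry heat shock element letters before their starts are shown for the members that the results turn on. The sequences are from RefSeq (GRCh38.p14), read 5′ to 3′ on the strand of the gene, and capitals mark the run of adjoining units. The first set holds members that rose in at least 1 comparison. The second holds members usually called stress-inducible or abundant, whose changes were small, uncertain or absent.
DNAJA4, chr15:78264499-78264528, plus strand: gtctccttgcgGAAGCTTCcgccggcgccg
HSPB1, chr7:76302480-76302509, plus strand: ccttaacgagaGAAGGTTCcagatgagggc
HSPB8, chr12:119178832-119178861, plus strand: tcatcacctccGAATATTCctgtgacagga
DNAJB6, chr7:157336864-157336893, plus strand: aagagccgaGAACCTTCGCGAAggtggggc
DNAJB1, chr19:14518426-14518455, minus strand: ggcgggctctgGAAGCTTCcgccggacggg
HSPA8, chr11:123062171-123062200, minus strand: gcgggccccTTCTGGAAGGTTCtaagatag
HSP90AA1, chr14:102087112-102087141, minus strand: ggagggttcTTCCGGAAGGTTCgggaggct
HSP90AB1, chr6:44247822-44247851, plus strand: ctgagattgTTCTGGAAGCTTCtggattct
HSPA1B, chr6:31827622-31827651, plus strand: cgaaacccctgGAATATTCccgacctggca
HSPA6, chr1:161524457-161524486, plus strand: gcggaaaggTTCGCGAAAGTTCgcggcggc

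In DNAJA4 and DNAJB1 the run of 8 capitals was the same, and it ended 44 and 39 bases before a start of the gene. The 8-base runs of HSPB8 and HSPB1 have other letters in the middle and ended 80 and 174 bases before a start. The run in DNAJB6, HSPA8, HSP90AA1, HSP90AB1 and HSPA6 was 13 bases long, which is 3 units. Within 250 bases before a start, 2 adjoining units (GAANNTTC or TTCNNGAA, which read alike on both strands) were found in 14 of the 55 tested members with a listed promoter. That is 25.45% of these genes, against 13.96% of all 27305 genes in the table. The 3-unit form, the same letters with a further unit (NNGAA or NNTTC) at their end, a search added after the 2-unit results were seen, was found in 5 of the 55 (9.09%), against 0.56% of all genes. Letters of the repeat known for ZNF263 (GGAGGAGG or CCTCCTCC) were in 8 of the 55 (14.55%), against 11.23% of all genes. Members have more listed starts per gene than other genes, and by start the shares were 18.67% against 11.58% for 2 units and 13.33% against 9.45% for the ZNF263 letters. A match is a description of the letters and not a shown binding site.

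Levels between genes are compared per length, as TPM, computed from the counts and the gene lengths in the table. In WT, HSP90AB1, the constitutive cytosolic HSP90, stood at 3797 ± 28.9 TPM (SD, n = 3), and HSPA8, the constitutive cytosolic HSP70, at 3785 ± 58.8. Their ranges over the 3 libraries overlapped, so these neighbours were not separated. HSPD1 followed with 1616 ± 30.2 TPM, then HSP90AA1, the inducible cytosolic HSP90, with 1475 ± 32.7, and HSP90B1, the HSP90 of the endoplasmic reticulum (ER), with 1052 ± 11.5. The level of HSPA5 (BiP, the HSP70 of the ER) was 667 ± 8.85 TPM and that of mitochondrial HSPA9 was 558 ± 6.04. The leading 5 genes made up 68.7 to 70.3% of the per-length level of all members in every library.

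The most abundant J-domain gene per length in WT was DNAJA1, a cytosolic partner of HSPA8, at 495 ± 6.03 TPM (SD, n = 3). DNAJC8, a spliceosome-associated protein, followed at 279 ± 7.94, and DNAJB6, which prevents polyglutamine aggregation, at 201 ± 5.73. Among members that changed most, HSPB1 stood at 188 ± 7.34 TPM and HSPA2, an HSP70 known for its role in spermatogenesis, at 33.2 ± 1.10, the 30th highest level of the members. HSPB8 and DNAJA4 were lower, at 8.98 ± 0.519 and 2.93 ± 0.415.

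**Figure D1:**
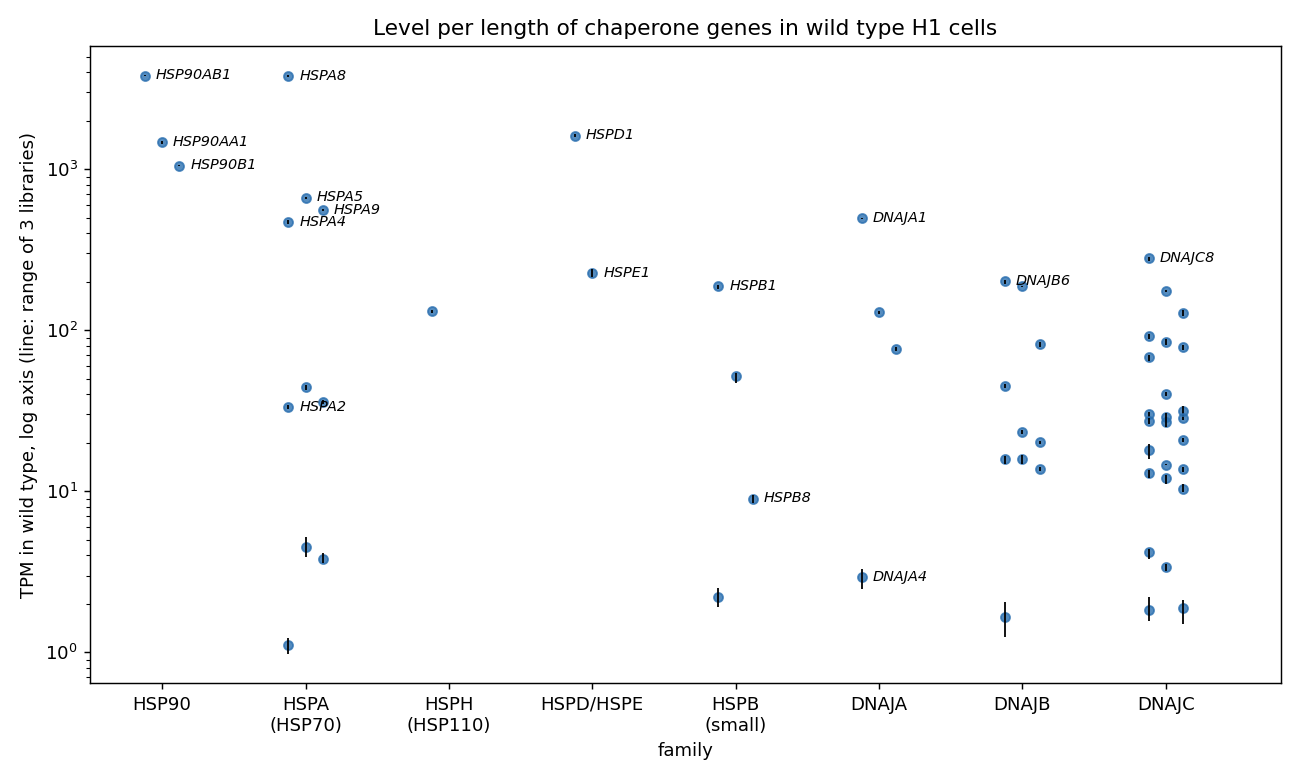
Level per length (TPM, log axis) of 59 tested chaperone genes in wild type, by family on the horizontal axis. Points are means of 3 libraries and vertical lines the range. HSP90AB1 and HSPA8 lie together at the top near 3797 and 3785 TPM, and DNAJA4 lies near the bottom of its family at 2.93 TPM. HSPA1B and the antisense rows are not drawn.

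The stress-inducible HSP70 genes gave few counts. HSPA6 had 14 counts over all libraries, HSPA7, a transcribed pseudogene, 21, HSPA1A 6 and HSPA1L 1. The rows of HSPA1A, HSPA1B and HSPA1L span chromosome 6 and 4 haplotype contigs. Only uniquely aligned reads were counted, which lowers the counts of such near-identical copies, so these values are uncertain and not a measure of how much HSP70 RNA the cells held. HSPA1B alone passed the filter, with 782 counts in all.

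Together the members took 1.86 to 1.91% of all counts in WT, 1.83 to 1.86% in OE, 1.79 to 1.81% in KO and 1.76 to 1.83% in KO with ZIC2. Per length the shares were 1.66 to 1.68% in WT, 1.62 to 1.65% in OE, at most 1.57% in KO and 1.51 to 1.56% in KO with ZIC2. On both scales the libraries of KO, KO with ZIC2 and OE all lay below those of WT without overlap. The gap was smallest for OE, at most 1.857% of counts against at least 1.859% in WT. The ratio of HSP90AB1 to HSP90AA1 per length was 2.54 to 2.61 in WT, 2.62 to 2.65 in OE, 2.74 to 2.88 in KO and 2.80 to 2.93 in KO with ZIC2.

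In the knockout cells a few chaperone genes differed strongly from WT and most of them little. In KO against WT, 8 of the 62 tested members rose and 13 fell (edgeR, adjusted p under 0.05). Over all 15437 genes tested, 38.6% were called in this comparison, 20% higher and 18.5% lower, so the share of members called, 33.9%, was near the background. The median size of the 21 calls was 0.16 on the log2 scale, against 0.27 for the 5951 calls over all genes. Of the 21, 18 (85.7%) were under 1.2-fold, against 48.7% of all calls, and 2 (DNAJA4 and HSPA2) were over 1.5-fold, against 769 (12.9%) of all calls. The median log2 fold change of the members was -0.06, against -0.01 for all genes.

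DNAJA4, a cytosolic J-domain protein of the same layout as DNAJA1, changed most. Its level was 4.39, 3.20 and 3.86 CPM in the WT libraries and 17.6, 17.5 and 18.0 CPM in the KO libraries. Every KO library was far above every WT library. The rise was 2.22 on the log2 scale (SE 0.11, 4.65-fold, adjusted p = 4.41e-13), the 16th highest of all 15437 log2 fold changes. The other DNAJA genes were not called: DNAJA1 differed by -0.07, DNAJA2 by -0.03 and DNAJA3 by 0.08 on the log2 scale. DNAJA4 stayed called under each of the 12 alternatives run, with log2 fold changes of 2.10 to 2.31. The gene lies on chromosome 15, 78556487 to 78574538 on the plus strand (hg19).

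HSPA2 was the HSP70 gene with the strongest change. It stood at 35.5, 34.3 and 36.4 CPM in WT and at 58.2, 63.2 and 63.3 CPM in KO, without overlap. The log2 fold change was 0.79 (SE 0.05, adjusted p = 4.93e-11) and ran from 0.76 to 0.83 over the alternatives. HSPA2 consists of 1 exon on chromosome 14, 65007186 to 65009954 (hg19). No heat shock element letters of the 2-unit form were found in its promoter window.

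Among the other HSP70 and HSP110 genes in KO, HSPA5 rose by 0.11 on the log2 scale (SE 0.03, adjusted p = 0.00953), from 995 to 1053 CPM in WT to 1081 to 1129 in KO. That call was lost without WT replicate 2 (adjusted p = 0.0897) or WT replicate 3 (0.0536). HSPA13, an ER-associated HSP70, fell by 0.18, and HSPA14, which works at the ribosome with DNAJC2, by 0.15. The HSP110-type exchange factors HSPA4 and HSPH1 fell by 0.12 each (adjusted p = 0.00567 and 0.00765). HSPA4 was at 604 to 620.4 CPM in WT and 538 to 579 in KO, without overlap. These 4 falls were lost when fold changes were corrected for GC content and length, and that of HSPH1 then had the opposite sign (0.02).

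The most abundant HSP70 did not pass the test in KO. HSPA8 was at 3610.0, 3609.7 and 3547 CPM in WT and 3591, 3601 and 3471 in KO, with overlap. The log2 difference was -0.01, with a 95% interval of -0.08 to 0.05. HSPA9 differed by -0.06 (adjusted p = 0.132) and HSPA4L by -0.29 (0.0758; 0.0131 without KO replicate 1). HSPA1B, at 3.36 to 4.29 CPM in WT and 2.89 to 3.42 in KO, differed by -0.25 (0.153), and HSPA12A and HSPA12B, distant relatives of HSP70, by -0.11 and -0.03.

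Of the HSP90 genes, the ER form and the inducible cytosolic form fell in KO. HSP90B1 (GRP94) was at 1186, 1160.5 and 1136 CPM in WT and 1042, 1034 and 1022 in KO. The groups did not overlap, and the log2 fold change was -0.17 (SE 0.03, adjusted p = 0.000234). HSP90AA1 fell from 2412, 2301 and 2238 CPM to 2109.6, 2227 and 2144, by 0.10 on the log2 scale (adjusted p = 0.0224). Its call was lost without WT replicate 1 (0.123), KO replicate 1 (0.0717) or KO replicate 3 (0.0662). HSP90AB1 was at 4157 to 4349 CPM in WT and 4281 to 4329.8 in KO and differed by 0.02 (95% interval -0.04 to 0.09).

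HSPB1 (HSP27), a small heat shock protein that also binds actin, was at 67.8, 61.3 and 65.5 CPM in WT and rose to 80.8, 97.6 and 85.6 CPM in KO. The groups did not overlap, and the log2 fold change was 0.43 (SE 0.06, adjusted p = 5.63e-06). HSPB1 is rich in GC (64.3% of its transcript), and with the GC and length correction its log2 fold change was 0.17 (adjusted p = 0.000974). HSPB2 was at 0.636 to 0.810 CPM in WT and 0.839 to 1.58 in KO and just missed the threshold (log2 difference 0.75, adjusted p = 0.0504), which it passed without KO replicate 3 (0.0228). HSPB8 differed by 0.08 and HSPB11 (IFT25, a ciliary transport protein) by -0.16, both uncalled; HSPB11 was called without WT replicate 3 (0.0288).

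Of the mitochondrial chaperonin genes 1 was called in KO. HSPD1 fell from 1552, 1528 and 1472 CPM in WT to 1384, 1404 and 1392, without overlap (log2 fold change -0.12, SE 0.03, adjusted p = 0.00295). HSPE1, its co-chaperonin on the opposite strand, was at 78.3 to 90.2 CPM in WT and 82.2 to 97.4 in KO. It was not called (log2 difference 0.12, adjusted p = 0.119), but was without KO replicate 1 (0.0106) or WT replicate 1 (0.031). The annotated exons of both genes overlap, and reads of the strands cannot be told apart with a kit that does not mark strand, so a part of the HSPE1 counts is uncertain. The ratio of HSPD1 to HSPE1 per length was 6.73 to 7.63 in WT and 5.64 to 6.58 in KO.

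Among 10 tested DNAJB genes, 2 rose and 2 fell in KO, beside 20% of all genes higher and 18.5% lower. DNAJB6 was at 244, 249 and 248 CPM in WT and 274, 281 and 273 in KO, without overlap (log2 fold change 0.16, SE 0.03, adjusted p = 0.000903). DNAJB2, a neuronal-enriched protein with ubiquitin-binding motifs, rose by 0.22, from 28.2 ± 0.989 CPM (SD, n = 3) to 33.0 ± 2.42. Its call was lost without WT replicate 3 (adjusted p = 0.0819). DNAJB4 fell by 0.21, from 18.9 to 20.2 CPM to 16.4 to 17.3, and this call too was lost without WT replicate 3 (0.0506). DNAJB14, an ER membrane protein, fell by 0.15, but was lost without WT replicate 2 (0.0888), WT replicate 3 (0.131), KO replicate 1 (0.0915) or KO replicate 2 (0.0960), and had the opposite sign (0.04) with the GC and length correction. DNAJB1, the classical stress-inducible HSP40, was at 88.8 to 92.8 CPM in WT and 88.6 to 98.5 in KO, with a log2 difference of 0.02 (95% interval -0.08 to 0.13).

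Among 27 tested DNAJC rows, 2 rose and 4 fell in KO, beside 20% of all genes higher and 18.5% lower. DNAJC13 (RME-8), which acts on endosomes, was at 82.1, 88.8 and 84.9 CPM in WT and 74.6, 64.1 and 74.6 in KO, without overlap (log2 fold change -0.26, SE 0.05, adjusted p = 0.000647). DNAJC18 fell by 0.23, from 24.3 to 26.5 CPM to 21.7 to 21.8. DNAJC2, the ribosome-associated partner of HSPA14, fell by 0.17, from 104 to 113 CPM to 95.8 to 98.7. DNAJC10 (ERdj5), an ER disulfide reductase, fell by 0.14 (adjusted p = 0.00354), with the opposite sign (0.04) after the GC and length correction. DNAJC11, of the mitochondrial inner membrane organising system, rose by 0.15. DNAJC5, the cysteine string protein of secretory vesicles, rose by 0.12, and its call was lost without WT replicate 1 (0.0724), WT replicate 2 (0.0951) or KO replicate 1 (0.0670). The annotations of DNAJC11, DNAJC2 and DNAJB4 overlap those of THAP3, PMPCB and FUBP1, which leaves the counts of these members uncertain. The antisense rows DNAJC9-AS1 and DNAJC3-AS1 were not called in any comparison.

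By compartment and inducibility, no list moved as a whole in KO. Of the 12 ER members, HSPA5 rose and HSPA13, HSP90B1, DNAJC10 and DNAJB14 fell, with a median log2 fold change of -0.08. Of the 9 mitochondrial members, DNAJC11 rose and HSPD1 fell, with a median of 0.08. Of the 14 members usually called stress-inducible, 11 were tested; DNAJA4 and HSPB1 rose and DNAJB4, HSPD1, HSPH1 and HSP90AA1 fell, with a median of -0.07. The median over all genes was -0.01. Of the 14 tested members with 2-unit heat shock element letters, 3 rose (DNAJA4, HSPB1 and DNAJB6), 3 fell (DNAJB4, HSPD1 and HSP90AA1) and 8 were not called. Of the 41 without them, 5 rose and 9 fell. Of the 8 with the ZNF263 letters, none rose and 3 fell (DNAJB4, DNAJB14 and HSP90AA1). Of the 47 without these letters, 8 rose and 9 fell, beside 20% of all genes higher and 18.5% lower. The calls of DNAJB4, DNAJB14 and HSP90AA1 were all lost with the GC and length correction.

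**Figure D2:**
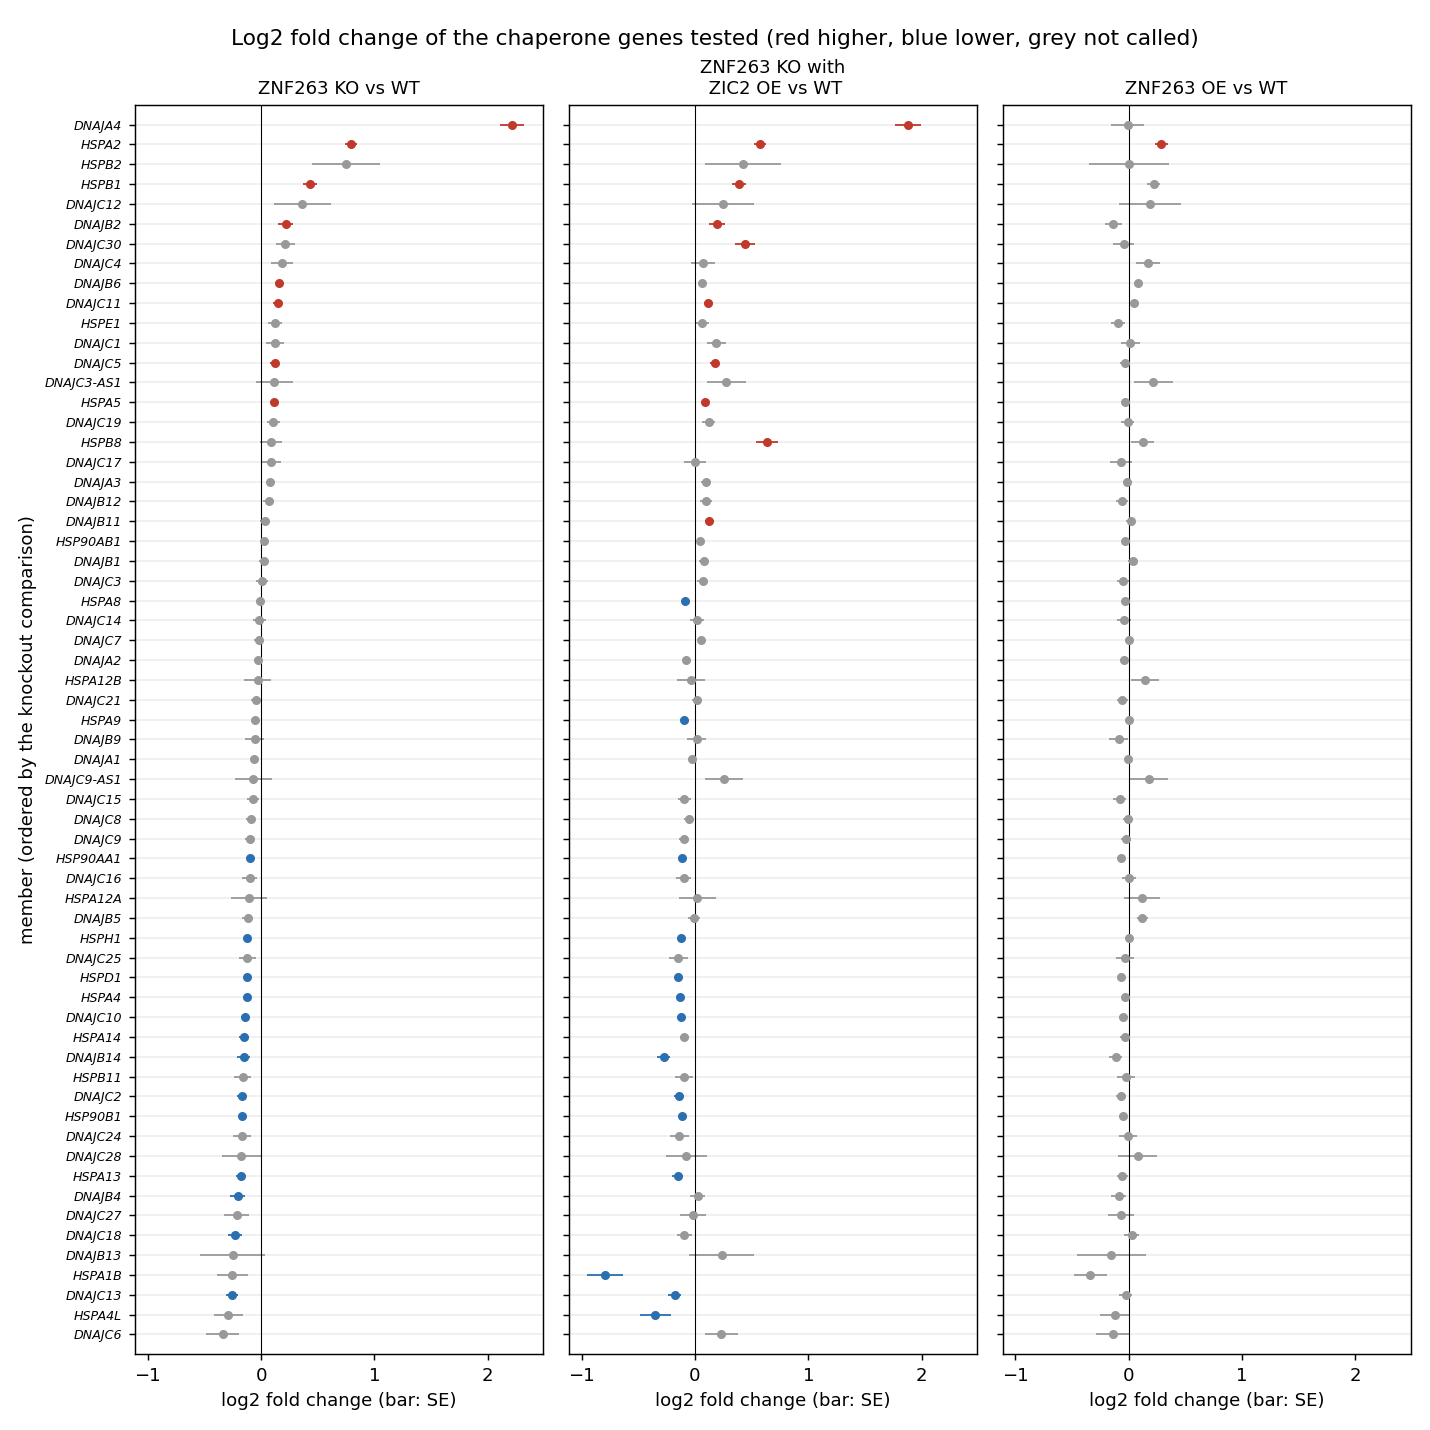
Log2 fold change (points, with SE) of the 62 members tested in KO, KO with ZIC2 and OE, each against the same 3 WT libraries, ordered by the KO comparison. Red marks members called higher, blue members called lower and grey members not called. DNAJA4 stands apart at 2.22 and 1.88 in the panels of the knockout groups, and HSPA2 alone is coloured in the OE panel.

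Fold changes in KO were related to GC content. Across genes, which are not independent replicates and share the 6 libraries, Spearman's rho between the log2 fold change and transcript GC content was 0.42. The median GC content of the members was 45.1%, against 48.5% for all genes. With fold changes corrected for GC content and length, 61 members had a value, of which 8 rose and 8 fell, and 10 of the 21 calls were kept. All genes were then called at 30.4%. The calls kept were DNAJA4, HSPA2, HSPB1, DNAJB6 and HSPA5 among those higher, and DNAJC13, DNAJC18, DNAJC2, HSP90B1 and HSPD1 among those lower. Called with the correction alone were DNAJC19, DNAJC3 and DNAJB11 (higher) and HSPB11, DNAJB5 and DNAJC8 (lower). Whether the relation with GC arose in the cells or in library preparation was not tested. Other settings ended calls as well: DESeq2 those of DNAJB14 (0.0838) and DNAJB4 (0.0522), the fit of only both groups those of DNAJB14 (0.0646) and HSP90AA1 (0.0566), and the lack of a filter that of DNAJC5 (0.0755), all adjusted p. Over all 12 alternatives, 9 of the 21 calls were kept in each: DNAJA4, HSPA2, HSPB1, DNAJB6, DNAJC13, DNAJC18, DNAJC2, HSP90B1 and HSPD1.

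**Figure D3:**
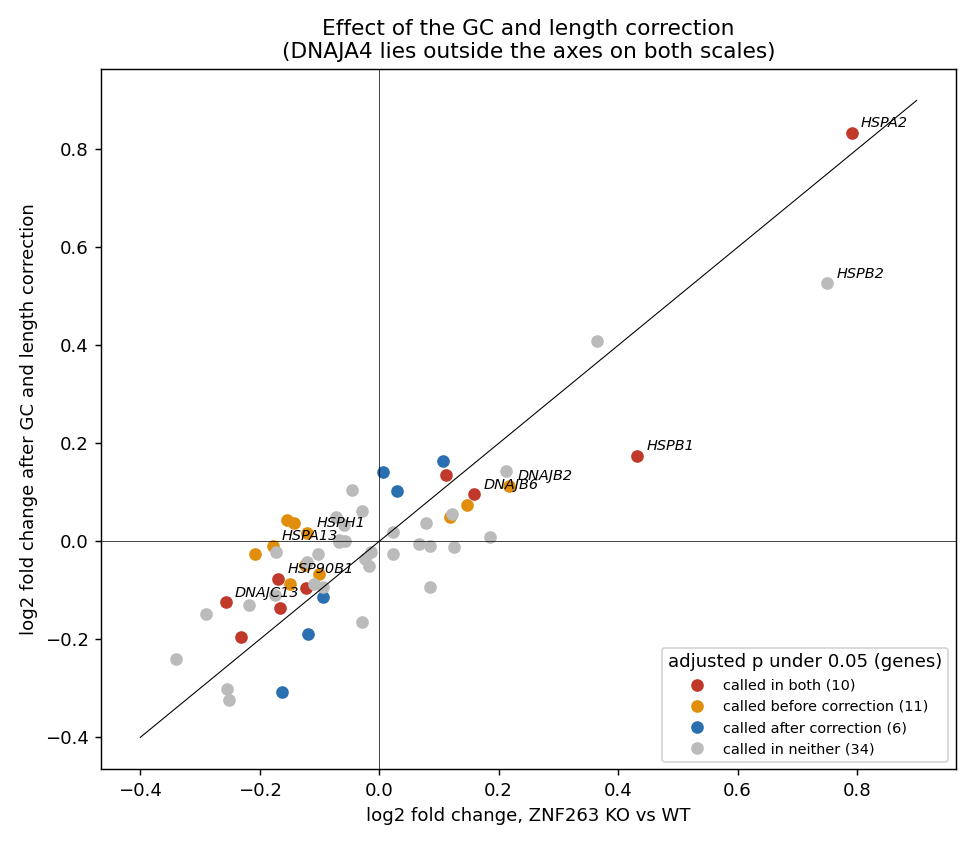
Log2 fold change in KO against WT before (horizontal axis) and after (vertical axis) the correction for GC content and length, 1 point per member; the line marks equal values. HSPA2 stays near the line, HSPB1 moves from 0.43 to 0.17, and several genes called lower before the correction (orange) move to near 0. DNAJA4 lies outside the axes at 2.22 and 2.21.

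Few chaperone genes differed between the knockout cells with and without ZIC2 overexpression. In KO with ZIC2 against KO, 3 members rose and 3 fell, and 8.34% of all genes were called (4.99% higher and 3.35% lower), beside 9.68% of the members. This comparison shares the KO libraries with that of KO against WT, so opposite signs in both are not independent results. HSPB8, a small heat shock protein that works with BAG3 in selective autophagy, rose most clearly. It was at 7.22, 7.22 and 7.69 CPM in KO and 10.5, 10.4 and 11.5 CPM in KO with ZIC2, without overlap (log2 fold change 0.55, SE 0.09, adjusted p = 0.000169). In WT it had been at 6.51 to 7.29 CPM, so the libraries with ZIC2 stood above all others. HSPB8 lies on chromosome 12, 119616595 to 119632551 (hg19).

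DNAJC6 (auxilin), which with HSPA8 strips the clathrin coat from vesicles, was at 3.56, 3.90 and 3.54 CPM in KO and 5.62, 5.24 and 5.39 in KO with ZIC2. The rise was 0.57 on the log2 scale (SE 0.14, adjusted p = 0.0113), and the WT libraries, at 3.76 to 5.10 CPM, overlapped those of KO and lay below those with ZIC2. It was lost without KO with ZIC2 replicate 1 (0.0634). DNAJB4 rose by 0.23, from 16.4 to 17.3 CPM to 19.3 to 21.2, beside 18.9 to 20.2 in its WT libraries. That call of DNAJB4 was lost with DESeq2 (0.132), with only both groups fitted (0.0646), and without KO replicate 2 (0.0522) or KO with ZIC2 replicate 3 (0.119). With the GC and length correction DNAJB4 differed by -0.03 in KO against WT (adjusted p = 0.794). It was then called higher with ZIC2 against WT (0.19, adjusted p = 0.0245).

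DNAJA4 and HSPA2, which had risen in KO, were lower with ZIC2, in comparisons that share the KO libraries. DNAJA4 was at 13.1, 14.5 and 14.6 CPM against 17.5 to 18.0 in KO (log2 fold change -0.34, SE 0.08, adjusted p = 0.0114). It was lost without KO with ZIC2 replicate 1 (0.0913). HSPA2 was at 53.1, 50.4 and 54.6 CPM against 58.2 to 63.3 in KO (log2 fold change -0.22, SE 0.05, adjusted p = 0.00461) and was called under every alternative run. Neither came near its WT level. HSPA1B was lowest with ZIC2, at 2.38, 1.99 and 2.23 CPM against 2.89 to 3.42 in KO (log2 fold change -0.54, SE 0.16, adjusted p = 0.0312). Its call was lost without any of 5 libraries: KO replicates 1 (0.0967) and 2 (0.0641), and KO with ZIC2 replicates 1 (0.0573), 2 (0.134) and 3 (0.0765). It was also lost with DESeq2 (0.154) and with only both groups fitted (0.0731). With few counts spread over near-identical copies, the HSPA1B values are uncertain as well. HSPB1, at 82.3 to 89.3 CPM with ZIC2 and 80.8 to 97.6 in KO, differed by -0.04 (95% interval -0.18 to 0.09).

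**Figure D4:**
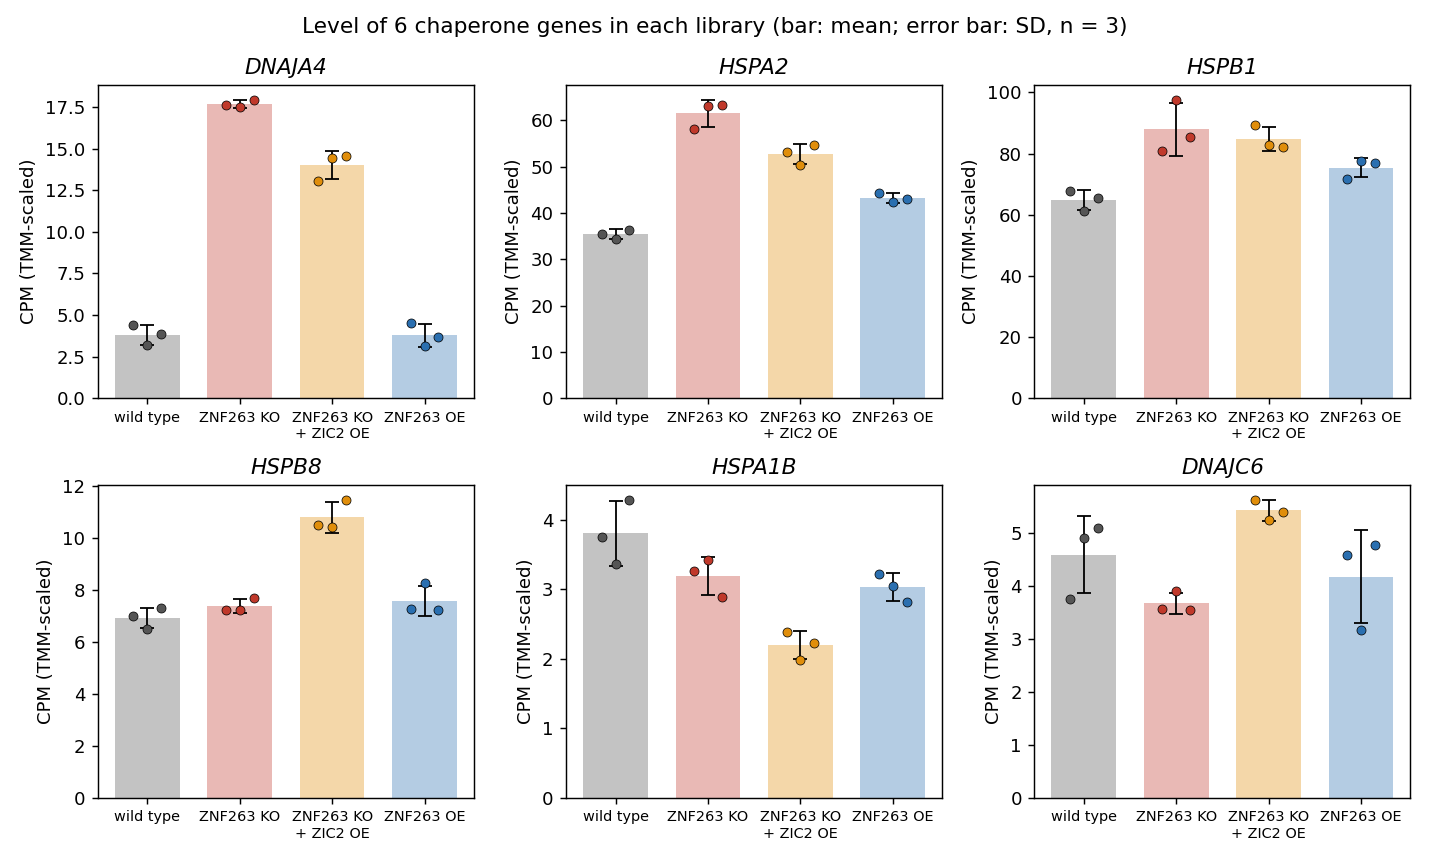
Level (CPM scaled by TMM factors) of 6 chaperone genes in each library; bars are means of 3 libraries and error bars the SD. DNAJA4 is high in both knockout groups, HSPA2 is above wild type in every other group, and HSPB8 is highest with ZIC2 at 10.4 to 11.5 CPM.

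Against WT, the KO cells with ZIC2 showed a set of calls like that of KO in size; both comparisons share the WT libraries, so their values are set side by side without a test of likeness. Here 10 members rose and 14 fell (38.7% of the 62), beside 37.6% of all genes (20.3% higher and 17.3% lower). The rises were led by DNAJA4 at 1.88 on the log2 scale (KO 2.22), HSPB8 at 0.64 (KO 0.08), HSPA2 at 0.57 (KO 0.79), DNAJC30 at 0.44 (KO 0.21) and HSPB1 at 0.39 (KO 0.43). DNAJC30, a mitochondrial J-domain protein, was at 10.1 ± 0.860 CPM (SD, n = 3) in WT, 11.7 ± 0.318 in KO and 13.7 ± 0.249 in KO with ZIC2, without overlap of any of these groups. It was called against WT (adjusted p = 0.000365) but not against KO (0.0877), and KO was called against WT only without WT replicate 1 (0.0261).

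Smaller rises against WT with ZIC2 were those of DNAJB2 (0.20), DNAJC5 (0.17), DNAJB11 (0.12), DNAJC11 (0.12) and HSPA5 (0.09), all on the log2 scale. DNAJB11 (ERdj3), the soluble J-domain partner of HSPA5, was at 120.1 to 126 CPM in WT and 129 to 136 with ZIC2. The calls of DNAJB2, DNAJB11 and HSPA5 were each lost without WT replicate 2, WT replicate 3, KO with ZIC2 replicate 1 or KO with ZIC2 replicate 2 (adjusted p from 0.0703 to 0.142 for DNAJB2, 0.0529 to 0.0973 for DNAJB11 and 0.0606 to 0.258 for HSPA5). HSPA5 was also lost with DESeq2 (0.0695), RLE size factors (0.0608), no filter (0.126), and only both groups fitted (0.0828). DNAJB2 was lost with DESeq2 (0.0738) and DNAJB11 without the filter (0.0661). DNAJC11 was lost without WT replicate 1 (0.126), WT replicate 2 (0.0947) or KO with ZIC2 replicate 1 (0.117), with DESeq2 (0.0658) and without the filter (0.104), and had the opposite sign (-0.02) with the GC and length correction.

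The falls against WT with ZIC2 were led by HSPA1B (-0.79, adjusted p = 0.000415), HSPA4L (-0.35, 0.0486) and DNAJB14 (-0.28, 0.000917). HSPA1B was at 3.36 to 4.29 CPM in WT and 1.99 to 2.38 with ZIC2, without overlap. HSPA4L, an HSP110-type gene at 6.10 to 7.28 CPM in WT and 4.57 to 5.74 with ZIC2, was lost without WT replicates 1 (0.162) or 2 (0.0591) and without KO with ZIC2 replicates 1 (0.132) or 3 (0.159). It was lost with DESeq2 too (0.0975), and with the GC and length correction (-0.22, 0.230). DNAJB14 was -0.083 with that correction, and its call was lost (0.290). HSPD1 fell by 0.15, HSPA4 by 0.14, HSPH1 by 0.12 and HSP90B1 by 0.11 on the log2 scale, and DNAJC10 by 0.13. HSPH1 and DNAJC10 had the opposite sign (0.01 and 0.04) with the GC and length correction, and HSP90B1 was lost with it.

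HSPA8 and HSPA9 were called against WT with ZIC2. HSPA8 was at 3250.5, 3455 and 3424 CPM, below the 3547 to 3610.0 CPM of WT (log2 fold change -0.09, adjusted p = 0.0232). That call was lost without WT replicate 2 (0.0611) or KO with ZIC2 replicate 1 (0.120). HSPA9 was at 696 to 711 CPM against 751 to 760.4 (log2 fold change -0.10, adjusted p = 0.0108), a call lost with the GC and length correction (0.0816). The difference of either gene between KO with ZIC2 and KO was not called (adjusted p = 0.148 for HSPA8 and 0.490 for HSPA9).

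The remaining falls were those of DNAJC13 (-0.18), HSPA13 (-0.15), DNAJC2 (-0.14) and HSP90AA1 (-0.11). DNAJC13 was lost without WT replicate 2 (0.0552) or KO with ZIC2 replicate 2 (0.0842), and HSPA13 without KO with ZIC2 replicate 1 (0.0954). With the GC and length correction both were lost: DNAJC13 was -0.058 (0.290), and HSPA13 was within 0.01 of 0 (0.999). DNAJC2 was lost without WT replicate 2 (0.0793), KO with ZIC2 replicate 1 (0.111) or replicate 3 (0.0694). HSP90AA1 was lost without WT replicate 1 (0.0668), KO with ZIC2 replicate 1 (0.0575) or replicate 3 (0.0577). Without KO with ZIC2 replicate 1, 6 members rose and 9 fell in this comparison, beside 29.2% of all genes called, and 3 members in place of 6 were called against KO, beside 5.40% of all genes.

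The relation with GC content was present in this comparison as well. Across genes, Spearman's rho between the log2 fold change and GC content was 0.44 here, 0.26 in OE against WT and 0.01 with ZIC2 against KO. With the correction 11 members rose and 8 fell against WT, beside 29.7% of all genes called, and 13 of the 24 calls were kept. HSPB1 then stood at 0.12 in place of 0.39 on the log2 scale (adjusted p = 0.0222). The 11 calls lost were those of DNAJB14, DNAJB2, DNAJC10, DNAJC11, DNAJC13, DNAJC5, HSP90B1, HSPA13, HSPA4L, HSPA9 and HSPH1. Called with the correction alone were 6 members against WT, among these DNAJB4 (higher) and DNAJB5 (lower). All 6 calls of KO with ZIC2 against KO were kept with the correction. There 3 more were called, among these DNAJB11 (higher) and DNAJB6 (lower), beside 15.7% of all genes called.

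Few chaperone genes passed the test under overexpression of ZNF263. In OE against WT, 1 member was called, beside 0.764% of all genes (0.317% higher and 0.447% lower), and 6 of 62 members (9.68%) had an unadjusted p under 0.05, beside 10.6% of all genes. That member was HSPA2, at 44.3, 42.4 and 43.1 CPM against 34.3 to 36.4 in WT, without overlap (log2 fold change 0.29, SE 0.05, adjusted p = 0.00648). It was lost without WT replicate 2 (0.0618). HSPA2 was thus higher than WT in all 3 other groups, in comparisons that share the WT libraries. HSPB1 was at 71.7, 77.7 and 76.9 CPM in OE, above every WT library, but was not called (log2 difference 0.22, adjusted p = 0.109). It was called when only WT and OE were fitted (0.00125), without the filter on low counts (0.00523) or with the GC and length correction (0.0245).

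DNAJA4 was not called in OE. It was at 4.53, 3.16 and 3.68 CPM, with a log2 difference of -0.01 (95% interval -0.34 to 0.33). For HSPA8 the difference was -0.03 (-0.10 to 0.04) and for HSP90AB1 -0.03 (-0.09 to 0.04). These intervals leave no room for a change of the size DNAJA4 showed in KO. HSPA1B differed by -0.34 (adjusted p = 0.407).

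Over the 4 comparisons, 33 of the 62 members (53.2%) were not called in any, beside 50.8% of all genes tested. The highest of the 4 group means exceeded the lowest by more than 1.5-fold in 5 members (8.06%, beside 16.4% of all genes): DNAJA4 (4.67-fold), HSPA2, HSPA1B, HSPB2 and HSPB8. In 47 of the 62 (75.8%) the ratio was under 1.2, beside 50.1% of all genes. Its median over the members was 1.12.

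The factors that control and assist these chaperones were read from fixed lists. HSF1, the main heat shock factor, was at 75.1, 76.2 and 80.9 CPM in WT and rose to 91.5, 92.8 and 97.3 in KO (log2 fold change 0.28, adjusted p = 2.92e-05). HSF2, which can form mixed trimers with HSF1, was at 14.3 to 15.3 CPM in WT and fell to 11.1 to 12.5 in KO (log2 fold change -0.37, adjusted p = 0.000496). With ZIC2 against WT, HSF1 was higher by 0.30 and HSF2 lower by 0.29 (a call lost with the GC and length correction, 0.0740), and in OE they differed by 0.06 and -0.05, uncalled.

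The counts of the partner lists in KO stand beside 20% of all genes higher and 18.5% lower, with a median of -0.01. Of 16 HSP90 co-chaperones, 7 rose and 2 fell in KO, with a median log2 fold change of 0.12. FKBP4 (0.28) and FKBP8 (0.34) rose and FKBP5 (-0.30) fell; the first and the last are immunophilins of steroid receptor complexes. Of 15 tested HSP70 partners, 4 rose and 3 fell, with a median of 0.07. HSPBP1, a nucleotide exchange factor (0.41), STUB1, the ubiquitin ligase CHIP (0.38), and SGTA (0.19) rose. STUB1 overlaps JMJD8 in the annotation, which leaves its counts uncertain, and SGTA was lost with the GC and length correction.

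Of 18 ER folding genes, 7 rose and 4 fell in KO, with a median log2 fold change of 0.10. CALR, a lectin chaperone (0.19), and PDIA4, a disulfide isomerase (0.18), rose, and SEC63, the J-domain protein of the translocon (-0.21), fell, which was lost with the GC and length correction. Of 13 tested subunits of the TRiC chaperonin and prefoldin, CCT7 (0.14) and PFDN2 (0.19) rose and CCT8 (-0.10) fell. PFDN2 was lost without WT replicate 3 (adjusted p = 0.177), and CCT8 without WT replicate 1 (0.0997), WT replicate 2 (0.0583) or KO replicate 1 (0.0833). Both were also lost with the GC and length correction. Of 12 mitochondrial import and quality control genes, 4 rose, with TIMM44 (0.25), CLPP (0.28) and TRAP1 (0.20) leading, and none fell; CLPP was lost with the GC and length correction.

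In KO with ZIC2 against WT, 8 of 16 HSP90 co-chaperones rose and 3 fell. Of 15 tested HSP70 partners 8 rose and 4 fell. Of 18 ER folding genes 7 rose and 3 fell, and of 13 TRiC and prefoldin subunits 1 rose and 2 fell. Of 12 mitochondrial genes 3 rose, LONP1 (0.16) among these, and 1 fell. These counts stand beside 20.3% of all genes higher and 17.3% lower. The GC and length correction ended some of these calls, such as those of CDC37 and CLPP. In OE no gene of these partner lists was called, at a background of 0.764%. With ZIC2 against KO, 1 of the 18 ER folding genes and no gene of the other partner lists was called. Over all genes 8.34% were called there (4.99% higher and 3.35% lower). That 1 gene, DDIT3 (CHOP), a factor induced by ER stress, was higher by 0.49 on the log2 scale (adjusted p = 0.0184). It was lost with DESeq2 (0.111), without KO replicate 1 (0.173), KO with ZIC2 replicate 1 (0.130) or KO with ZIC2 replicate 2 (0.0509). The ER members HSPA5, HSP90B1, DNAJB9 and DNAJC3 were not called in that comparison.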

How the data were processed

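Raw counts per gene were deposited by the authors in 1 table with 12 sample columns; they are not normalized. Per the file headers, only uniquely aligned reads were counted, and the deposited table gives another column, gene length. Per the submitters' processing notes, STAR, featureCounts, DESeq2 and hg19 were used, without versions given. Per the labels' protocols, the kit was NEBNext Ultra II RNA, which in this form does not mark strand.

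Samples were grouped by their labels, 3 libraries in each of 4 groups. Genes were filtered with filterByExpr, scaled by TMM and tested with edgeR 4.0.16 (quasi-likelihood, R 4.3.3) in 1 fit over all 12 libraries. P-values were adjusted by Benjamini-Hochberg over 15437 genes, with calls at 0.05, and they reflect variation among these libraries alone, possibly technical. CPM use TMM-scaled totals. TPM were computed from the counts and lengths. SE is the size of the log2 fold change over the square root of F. The scripts were tested on simulated data.

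The alternatives were DESeq2 1.42.0, RLE size factors, no filter, a fit of only the 2 groups compared, a replicate block, a correction for GC content and length, and leaving out each library. The genes to be named were drawn from all tested HSP and DNAJA genes, the stress-inducible list, the 5 DNAJB and 5 DNAJC genes of smallest adjusted p in each comparison, HSF1 and HSF2, and up to 3 leading called genes of each partner list; other genes were named after their values were seen. The members and lists were chosen with earlier results of these data known. Gene coordinates are hg19 as in the table; promoters are from RefSeq on GRCh38.p14.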

Additional observations from a re-analysis of the deposited data

How the results depend on the processing

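Among members and named partner genes, 7 fold changes called without the GC and length correction reversed with it, none of them called then. Sign changes of uncalled differences are not counted here. All were of members except that of LONP1, a gene of the mitochondrial partner list. In KO against WT, DNAJB14 was 0.043, DNAJC10 0.038 and HSPH1 0.018. In KO with ZIC2 against WT, DNAJC10 was 0.044, DNAJC11 -0.019, HSPH1 0.0080 and LONP1 -0.026. The same correction left 8 members lower in each of these comparisons (14.1% and 16.4% of all genes lower), gave 5 in place of 3 lower with ZIC2 against KO (9.77% in place of 3.35%), and 2 called in OE, both higher (1.62% called in place of 0.764%). OE also gave 2 without the filter (0.929%) and with only the 2 groups fitted (2.89%). The cause was not tested. Leaving out 1 library gave 6 to 9 members higher, 12 to 15 lower and 18 to 23 called in KO, and 6 to 11 higher, 9 to 16 lower and 15 to 23 called with ZIC2 against WT. With ZIC2 against KO it gave 2 to 3 higher, 1 to 3 lower and 3 to 6 called, and in OE 0 to 1 higher, 0 lower and 0 to 1 called. Same-numbered libraries did not deviate together (correlations of -0.11 to 0.11, and 4 of 12 libraries correlated best with their own number). With the replicate block 21 members were called in KO, 22 with ZIC2 against WT (HSPA5 and HSPA4L were lost, adjusted p = 0.0520 and 0.0526), 6 with ZIC2 against KO and 1 in OE. The shares of all genes called with the block were 37.9%, 36.9%, 8.06% and 0.700%, in the same order. Genes of few counts, such as HSPA1B and HSPB2, have the widest intervals.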
